A study of Mus musculus with 9 samples.

Results

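The genes described here are those that bring pyruvate into the mitochondrion, convert it to acetyl-CoA and oxidise it in the tricarboxylic acid cycle. They are a list of 32 genes chosen by their function: 17 enzyme subunits of the cycle, 4 subunits of the pyruvate dehydrogenase complex, the 4 kinases and 2 phosphatases that regulate the complex, both subunits of the mitochondrial pyruvate carrier and 3 enzymes of the malate-aspartate shuttle. Of these, 30 were measured, among 18820 genes measured in all, each by a probe set annotated to that gene alone and by the brightest one where a gene had several. Pdha1, the catalytic alpha subunit of pyruvate dehydrogenase, was read only by probe sets shared with Map3k15, and no probe set was named for Mpc2, the second carrier subunit, so neither was tested.

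Transcripts were measured in the right ventricle of 9 female C57BL/6 mice with 3 mice per group, each hybridised to its own Affymetrix mouse gene 1.1 ST array. MCT+NI mice (615, 617 and 619) received weekly subcutaneous injections of 600 mg/kg monocrotaline (MCT), a plant alkaloid whose metabolites injure the vessels of the lung and so load the right ventricle, for 8 weeks from 10 weeks of age, together with a nutritional intervention (NI), an isocaloric diet enriched in fish oil, oligosaccharides, leucine and protein. MCT mice (640, 641 and 644) received the same injections on the standard AIN-93M diet, and sham mice (620, 624 and 625) received saline on that standard diet. By the labels the mice arrived at 8 weeks of age and were on their diets for 2 weeks before the first injection, whereas the methods give a shorter time. The arrayed animals were picked from a larger experiment and matched for disease severity, were of 1 sex and 1 strain, and gave whole ventricular tissue. Values per mouse are given in the order of the mouse numbers above.

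Heart muscle is dense in mitochondria and obtains most of its ATP from oxidative metabolism. The pyruvate dehydrogenase complex joins glycolysis to the tricarboxylic acid cycle, which strips electrons from acetyl-CoA and passes them to the respiratory chain. Pyruvate dehydrogenase kinases phosphorylate the complex and switch it off, and the phosphatases remove the phosphate and switch it on again. The arrays report transcript abundance and carry no information on this phosphorylation or on enzyme activity.

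Start-site windows from RefSeq (mouse build GRCm38.p6, 250 bases before and 50 bases after each annotated start) were found for 29 of the 32 genes, 37 windows in all among 32851. They were searched on both strands for 6 short motifs, and a match describes letters only, not a site that a factor uses. The CRE (TGACGTCA), the motif of the CREB family, was in 4 of the 37 windows, that of Mdh2 and 3 overlapping windows of Ogdh that share 1 match, and in 1.79% of all windows. The E-box (CACGTG) was in 5 windows, of Pdk2, Pdp2 and 3 of Ogdh of which 2 overlap and share 1 match, and in 7.15% of all windows. The NRF1 motif (GCGCATGC) was in 3 windows, that of Sdhb and the same 2 overlapping windows of Ogdh, which share 1 match, and in 2.71% of all windows. The motif of the estrogen-related receptors (TCAAGGTCA) was in 1 window, of Sdhd, and in 0.423% of all windows. The PPAR core motif (AAAGGTCA, which shares the letters AAGGTCA with the preceding motif) and the MEF2 motif (CTATTTTTA) were in 0 of the 37 windows, against 1.51% and 0.493% of all windows.

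Of the 5 genes that passed the test in MCT relative to sham mice, Mdh2 and Pdk2 had a window with one of these motifs. The 250 bases before their starts are shown with the motif in capitals, the CRE of Mdh2 beginning 127 bases before the start (chr5:135778399-135778648, plus strand) and the E-box of Pdk2 126 bases before the start (chr11:95041372-95041621, minus strand). Pdk2 has a second annotated start whose window held none of the 6 motifs.
Mdh2: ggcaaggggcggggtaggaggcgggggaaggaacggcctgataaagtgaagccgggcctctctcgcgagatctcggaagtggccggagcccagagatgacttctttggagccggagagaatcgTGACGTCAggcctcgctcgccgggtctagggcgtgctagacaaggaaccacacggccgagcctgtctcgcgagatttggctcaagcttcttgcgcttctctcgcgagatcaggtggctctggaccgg
Pdk2: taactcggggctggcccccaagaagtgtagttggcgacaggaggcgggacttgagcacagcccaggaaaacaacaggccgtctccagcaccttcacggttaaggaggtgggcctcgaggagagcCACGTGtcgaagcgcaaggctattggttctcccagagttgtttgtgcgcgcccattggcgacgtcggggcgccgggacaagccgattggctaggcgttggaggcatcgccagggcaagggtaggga

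On the log2 scale the array medians ranged over 4.77 to 4.79, and for 12042 of the genes tested 2 or more mice shared an identical value. The tissue label was checked against 14 measured cardiomyocyte markers, whose mean log2 value was 12.24 to 12.26 in MCT+NI mice, 12.19 to 12.25 in MCT mice and 12.24 to 12.26 in sham mice. The libraries differed in transcripts of the atrium: the summed linear values of 6 atrial markers (Myl7, Myl4, Nppa, Sln, Dkk3 and Bmp10) were 1244 to 9287 in MCT+NI mice, 1086 to 18170 in MCT mice and 14540 to 22030 in sham mice. MCT mouse 644 was in the range of the sham mice, MCT+NI mouse 615 was between, and the other 4 mice given MCT were low. The calls against sham mice are therefore also given without mice 644 and 615 and with the mean of the atrial markers as a covariate. Leaving out mice 644 and 615 widened the atrial difference from sham rather than removing it. The median log2 difference of the atrial markers went from -3.47 to -5.22 in MCT mice and from -3.80 to -4.98 in MCT+NI mice. The covariate fit rests largely on the same mice, since the others given MCT were low. The part of atrial tissue in a call kept in either setting was thus not tested.

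The comparison of MCT with sham mice asks how these genes stood in the loaded ventricle. Of the 30 measured genes, 30 had a lower mean in MCT than in sham mice, where 55.0% of all genes did, and the median log2 difference was -0.12, against -0.02 over all genes. At an adjusted p under 0.05 (limma, Benjamini-Hochberg over all 18820 genes), 5 of the 30 fell, and 0 rose with none higher at an unadjusted p under 0.05. Of all genes 1.61% fell and 4.65% rose at that threshold. The 5 were the cycle enzymes Suclg1, Mdh2 and Idh3g, the complex subunit Pdhb and the kinase Pdk2. At an unadjusted p under 0.05 (the looser threshold of the methods) 19 of the 30 were lower, against 9.14% of all genes. At 0.01, the stricter threshold of the methods, 11 of the 30 were lower, against 633 of all 18820 genes. In 21 of the 30 the 3 MCT mice were all below the 3 sham mice, against 10.2% of all genes. In bulk tissue fewer cells of a type and less RNA per cell cannot be told apart. With mice 644 (MCT) and 615 (MCT+NI) left out the median was -0.11 and 19 genes were lower at an unadjusted p under 0.05, but only Pdk2 was called (adjusted p = 0.0324). With the atrial markers as a covariate the median was -0.14 and 4 genes were called, Idh2, Suclg2, Pdk2 and Pdp1. With 1 mouse left out at a time, 1 of the 30 was called without sham mouse 620. The calls were 2 without any 1 of mice 624 and 625 (sham), 640 and 644 (MCT) and 615 (MCT+NI). They were 3 without mouse 641 (MCT) or 619 (MCT+NI), and 5 without mouse 617 (MCT+NI). These counts include genes not called with all mice: Suclg2 without mouse 640, Mdh1 without mouse 644 and Pdp1 without mouse 617. Over 21 alternatives in all, Pdk2 was called in 21, Pdhb in 11, Idh3g in 10, Suclg1 in 9 and Mdh2 in 8, each with the same sign throughout.

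Setting MCT+NI against MCT mice asks whether the diet was accompanied by other levels under the same injections. It shares the 3 MCT mice with the comparison above, so that a chance low value in an MCT mouse moves both. No gene of the 18820 passed the adjusted threshold in limma (0.0% of all genes, smallest adjusted p = 1), and 300 were higher and 245 lower at an unadjusted p under 0.05. Of the 30 genes, 28 had a mean above that of the MCT mice when NI was given, where 47.6% of all genes did, with a median log2 difference of 0.06 against -0.0046 over all genes. At an unadjusted p under 0.05, 7 of the 30 were higher and 0 lower, against 1.59% higher among all genes. These were Dld, Suclg1, Sucla2 and Fh1 of the cycle, Pdhb, the carrier subunit Mpc1 and the shuttle enzyme Mdh1. In 6 genes the 3 MCT+NI mice were all above the 3 MCT mice, against 3.11% of all genes. The 7 became 3 without MCT+NI mouse 617 and 4 without MCT+NI mouse 619.

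In the third comparison, MCT+NI with sham mice, which shares its arrays with the other two, 25 of the 30 had a lower mean in MCT+NI mice, where 55.6% of all genes did, and the median log2 difference was -0.04. Only Pdk2 passed the adjusted threshold, falling, where 1.75% of all genes fell and 4.52% rose. At an unadjusted p under 0.05, 5 were lower (Idh3g, Sdha, Mdh2, Pdk2 and Pdp1), against 9.37% of all genes. In 8 the 3 MCT+NI mice were all below the 3 sham mice, against 10.3% of all genes. With the atrial markers as a covariate the calls were Idh2 and Pdp1 in place of Pdk2, the count lower by the unadjusted p became 9 and the median -0.083. Without mice 644 and 615 none of the 30 was called in limma, with 5 lower by the unadjusted p and a median of -0.02.

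**Figure D1:**
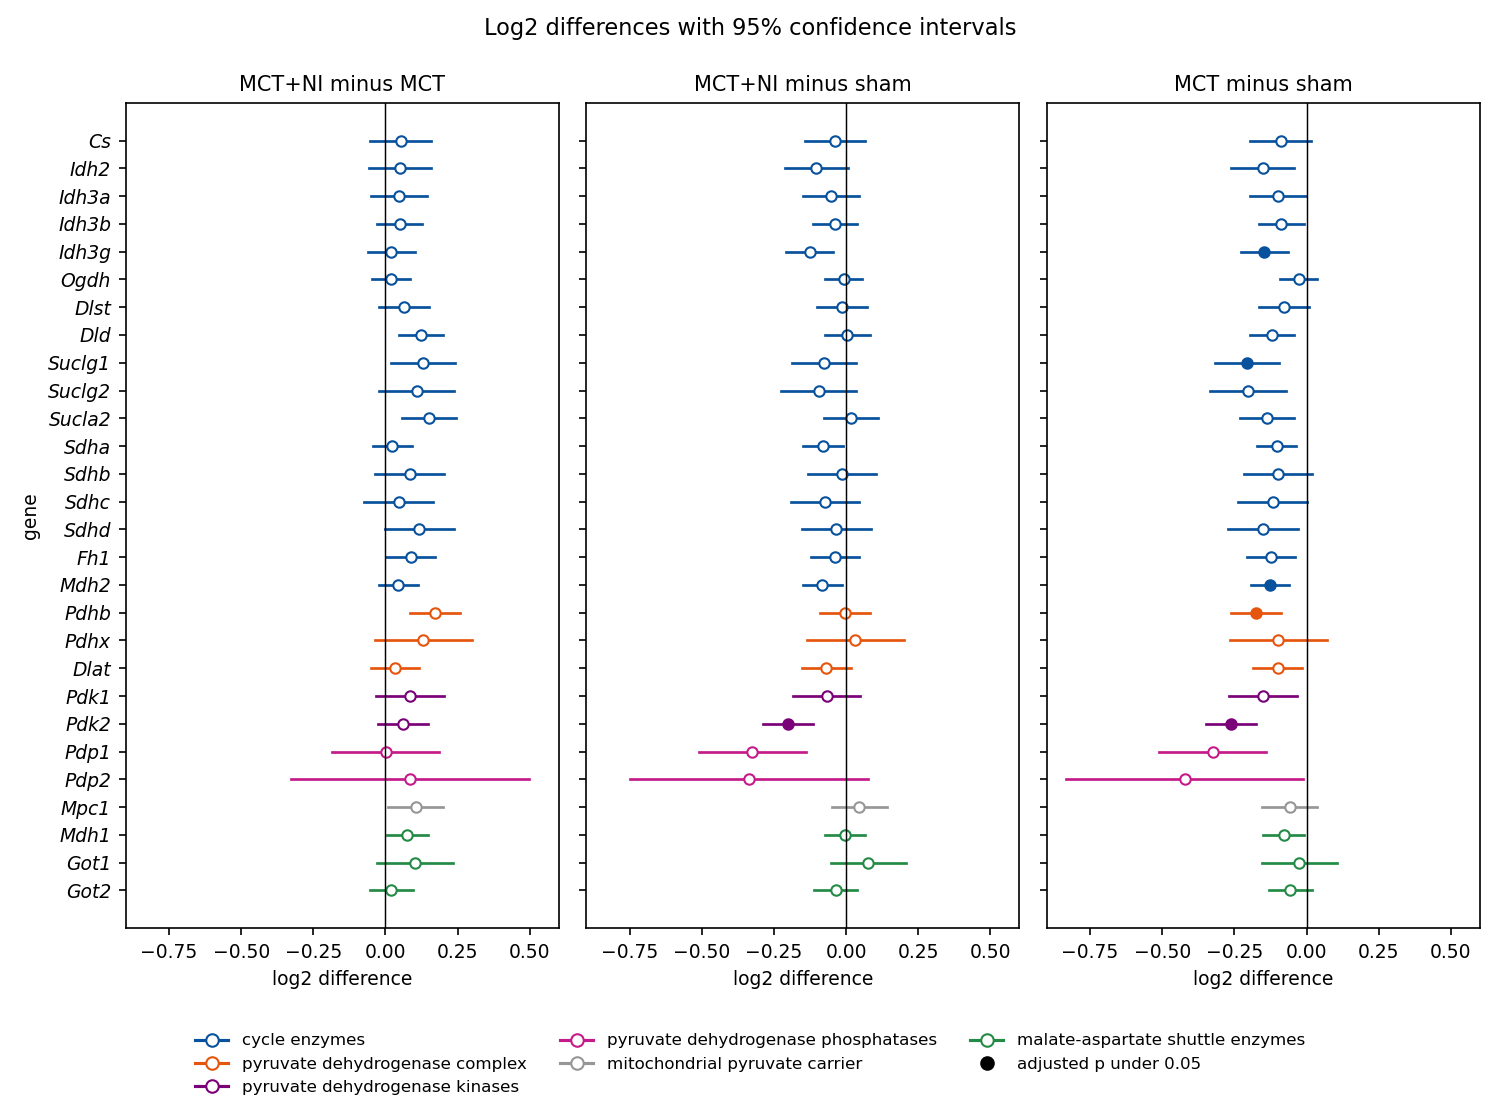
Log2 differences (points) with 95% confidence intervals (lines) of 28 measured genes in MCT+NI minus MCT, MCT+NI minus sham and MCT minus sham mice, 3 mice per group, with filled points at an adjusted p under 0.05. Pdk3 and Pdk4 are left out because their intervals run beyond the axis. In the right panel all 28 points lie left of 0, with 5 of them filled.

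The 17 subunits of the cycle were all lower in MCT than in sham mice in their means, by log2 differences of -0.21 to -0.03. Among all genes 55.0% had a lower mean. The MCT mice lay wholly below the sham mice in 15 of the 17, against 10.2% of all genes. In MCT+NI relative to MCT mice the 17 differences were 0.02 to 0.15, and relative to sham mice -0.13 to 0.02. The cycle begins with citrate synthase (Cs), which joins acetyl-CoA to oxaloacetate, and its difference of -0.09 in MCT mice did not pass the test (adjusted p = 0.33).

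Isocitrate dehydrogenase exists as an NAD-dependent enzyme made of Idh3a, Idh3b and Idh3g and as the NADP-dependent Idh2. Idh3g, a regulatory subunit of the NAD-dependent enzyme, read 11.76, 11.80 and 11.71 in MCT+NI mice, 11.73, 11.79 and 11.68 in MCT mice, and 11.89, 11.86 and 11.89 in sham mice. All 6 mice given MCT were below all 3 sham mice, and the MCT+NI and MCT mice overlapped. It fell by 0.15 in MCT relative to sham mice (SE 0.036, adjusted p = 0.0467), a level 9.63% lower. In MCT+NI mice the difference from sham was -0.13 (adjusted p = 0.0804), and from MCT mice 0.02. The catalytic subunit Idh3a and the regulatory subunit Idh3b differed from sham by -0.10 and -0.09 in MCT mice (adjusted p = 0.24 and 0.197), and Idh2 by -0.15 (adjusted p = 0.11, and 0.0113 with the atrial markers as a covariate). In MCT+NI mice Idh2 differed from sham by -0.10 (adjusted p = 0.286, and 0.0302 with that covariate).

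The 2-oxoglutarate dehydrogenase complex is made of Ogdh, Dlst and Dld, of which Dld, the dihydrolipoamide dehydrogenase, also serves the pyruvate and branched-chain complexes. Dld read 10.42, 10.47 and 10.39 in MCT+NI mice, 10.28, 10.34 and 10.28 in MCT mice, and 10.45, 10.39 and 10.42 in sham mice. The MCT mice were the lowest 3 of the 9, and the MCT+NI and sham mice overlapped. Its difference was -0.12 in MCT relative to sham mice (SE 0.034, adjusted p = 0.081) and 0.12 in MCT+NI relative to MCT mice (SE 0.034, adjusted p = 1). Ogdh, the first enzyme of the complex, lay at 11.99 in each MCT+NI mouse, at 11.93 to 12.01 in MCT mice and at 11.97 to 12.03 in sham mice, and its difference of -0.03 in MCT mice was the nearest to 0 of the cycle (95% interval -0.09 to 0.04). Dlst, the succinyltransferase, differed by -0.08 in MCT relative to sham mice and by 0.07 in MCT+NI relative to MCT mice, and neither passed the test.

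Succinyl-CoA ligase makes GTP or ATP and pairs the common alpha subunit Suclg1 with the beta subunit Suclg2 (GTP form) or Sucla2 (ATP form). Suclg1 read 9.49, 9.58 and 9.50 in MCT+NI mice, 9.34, 9.43 and 9.40 in MCT mice, and 9.69, 9.54 and 9.56 in sham mice. The MCT mice were the lowest 3, sham mouse 620 was the highest, and MCT+NI mouse 617 reached into the sham range. It fell by 0.21 in MCT relative to sham mice (SE 0.049, adjusted p = 0.0398), a level 13.4% lower, and its difference in MCT+NI relative to MCT mice was 0.13 (SE 0.049, adjusted p = 1). Sucla2 read 10.94, 11.03 and 11.01 in MCT+NI mice, 10.83, 10.90 and 10.80 in MCT mice, and 11.03, 10.93 and 10.97 in sham mice. Again the MCT mice were the lowest 3, and the MCT+NI and sham mice shared a range. The differences of Sucla2 were -0.14 in MCT relative to sham mice (SE 0.041, adjusted p = 0.0995) and 0.15 in MCT+NI relative to MCT mice (SE 0.041, adjusted p = 1). Suclg2 differed by -0.20 in MCT relative to sham mice (adjusted p = 0.0797) on its brightest probe set. This probe set stands in the manufacturer's numbering among those of chromosome X, whereas Suclg2 lies on chromosome 6, and the dimmer probe set numbered among chromosome 6 genes gave -0.14 (adjusted p = 0.222 in a fit of all single-gene probe sets).

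Succinate dehydrogenase, which is also complex II of the respiratory chain, is made of the catalytic subunits Sdha and Sdhb and the membrane anchors Sdhc and Sdhd. The 4 subunits differed by -0.15 to -0.10 in MCT relative to sham mice, with adjusted p-values of 0.0848 to 0.346. The MCT mice lay wholly below the sham mice in all 4, against 10.2% of all genes. In MCT+NI relative to MCT mice they differed by 0.02 to 0.12, Sdhd having the largest difference of the 4, and the groups overlapped in all 4.

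Fumarate hydratase (Fh1) and malate dehydrogenase (Mdh2) complete the cycle. Fh1 read 10.95, 11.06 and 10.99 in MCT+NI mice, 10.90, 10.90 and 10.93 in MCT mice, and 11.09, 11.04 and 10.99 in sham mice. The MCT mice were the lowest 3, with differences of -0.12 in MCT relative to sham mice (SE 0.037, adjusted p = 0.0942) and 0.09 in MCT+NI relative to MCT mice (SE 0.037, adjusted p = 1). Mdh2, whose window with a CRE is printed above, read 11.89, 11.91 and 11.89 in MCT+NI mice, 11.85, 11.87 and 11.84 in MCT mice, and 12.04, 11.96 and 11.94 in sham mice. The 3 groups did not overlap with each other, MCT mice being lowest and sham mice highest. Mdh2 fell by 0.13 in MCT relative to sham mice (SE 0.030, adjusted p = 0.0378), a level 8.42% lower. In MCT+NI mice the difference from sham was -0.08 (adjusted p = 0.165) and from MCT mice 0.04 (adjusted p = 1).

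**Figure D2:**
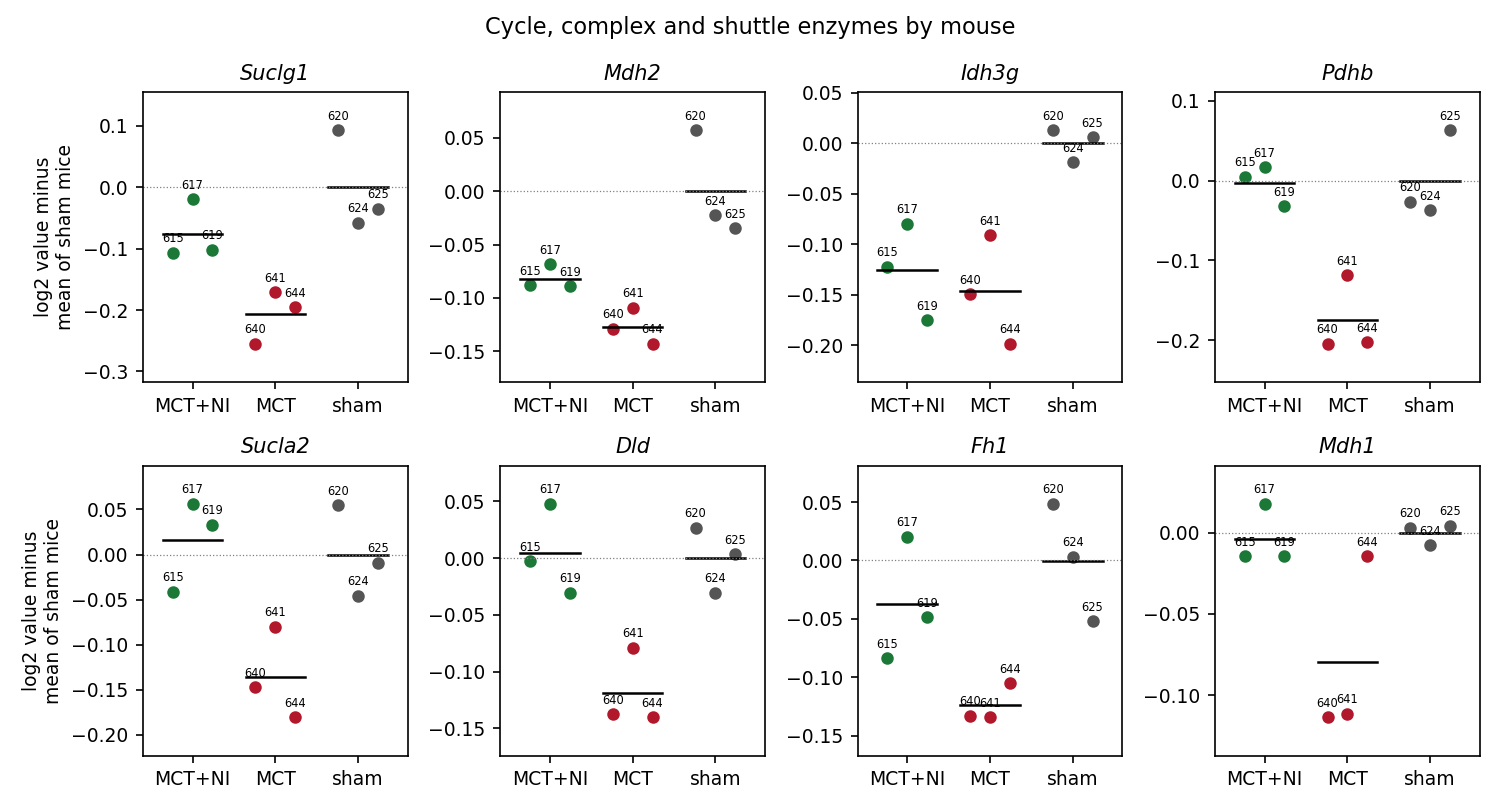
Log2 value minus the mean of the sham mice for 8 enzyme genes in single mice (points with mouse numbers, MCT+NI, MCT and sham from left to right, lines at group means). Each panel has its own vertical scale. The 3 MCT mice lie below the sham mice in every panel, as for Suclg1 with 9.34 to 9.43 in MCT and 9.54 to 9.69 in sham mice. The 8 genes were picked by p-values that include MCT against sham mice, so this separation follows in part from the choice. Among all 30 measured genes the MCT mice lay wholly below the sham mice in 21, against 10.2% of all genes.

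In the pyruvate dehydrogenase complex, Pdhb, the beta subunit of the first enzyme, read 10.92, 10.93 and 10.88 in MCT+NI mice, 10.71, 10.79 and 10.71 in MCT mice, and 10.89, 10.88 and 10.98 in sham mice. The MCT mice were the lowest 3 by a gap, and the MCT+NI mice lay within the range of the sham mice. It fell by 0.18 in MCT relative to sham mice (95% interval -0.26 to -0.09), a level 11.4% lower, and the level in MCT+NI mice was 12.7% above that of MCT mice without passing the adjusted test (95% interval of the log2 difference 0.09 to 0.26). Between MCT+NI and sham mice the interval was -0.09 to 0.08. A second, dim probe set of Pdhb (mean log2 value 4.29) gave -0.24 in MCT relative to sham mice (adjusted p = 0.305 in the fit of all single-gene probe sets). The call of Pdhb was lost when its probe sets were averaged. Dlat, the acetyltransferase, and Pdhx, which anchors Dld to the complex, differed by -0.10 each in MCT relative to sham mice (adjusted p = 0.172 and 0.521) and by 0.03 and 0.13 in MCT+NI relative to MCT mice. The brighter of the probe sets that Pdha1 shares with Map3k15 read 11.42, 11.44 and 11.44 in MCT+NI mice, 11.40, 11.41 and 11.36 in MCT mice, and 11.49 in each sham mouse. Its groups did not overlap, and which of the 2 genes it read cannot be told apart.

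The regulators of the complex were taken apart from its enzymes. Pdk2, a kinase abundant in heart, read 10.81, 10.83 and 10.82 in MCT+NI mice, 10.73, 10.82 and 10.73 in MCT mice, and 11.04, 11.06 and 10.96 in sham mice. All 6 mice given MCT were below the 3 sham mice, and the MCT+NI mice were within 0.02 of each other. Pdk2 fell by 0.26 in MCT mice (SE 0.038, adjusted p = 0.00436), a level 16.5% lower, and by 0.20 in MCT+NI mice (SE 0.038, adjusted p = 0.0165), a level 12.9% lower, both relative to sham mice. Its difference between MCT+NI and MCT mice was 0.06 (95% interval -0.03 to 0.15). The call in MCT mice held in 21 of 21 alternatives (adjusted p = 0.00271 to 0.0324), and that in MCT+NI mice in 14 of 21 (adjusted p = 0.00994 to 0.0832), being lost with the atrial markers as a covariate (0.0832), without mice 644 and 615 (0.0768), with no intensity trend (0.0697) and without MCT+NI mouse 615 (0.0635) or 619 (0.0682) or sham mouse 620 (0.0526) or 624 (0.0622).

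Pdk1, a kinase known as a target of hypoxia-inducible factor, read 8.50, 8.47 and 8.54 in MCT+NI mice, 8.50, 8.32 and 8.44 in MCT mice, and 8.60, 8.58 and 8.53 in sham mice. Its difference from sham was -0.15 in MCT mice (SE 0.052, adjusted p = 0.139) and -0.07 in MCT+NI mice, and MCT mouse 641 was the lowest of the 9. Pdk3 read 5.89, 5.31 and 5.64 in MCT+NI mice, 5.81, 5.49 and 6.34 in MCT mice, and 5.78, 6.64 and 6.22 in sham mice. The groups of Pdk3 overlapped in each comparison, and the differences of -0.33 in MCT and -0.60 in MCT+NI relative to sham mice had an SE of 0.267. Pdk4, the kinase induced by fasting and fatty acids, read 10.06, 9.53 and 9.87 in MCT+NI mice, 10.50, 9.49 and 9.71 in MCT mice, and 10.58, 8.71 and 11.10 in sham mice. The sham mice spanned more than the other 6 mice together, sham mouse 624 being the lowest and sham mouse 625 the highest of all. The differences of Pdk4 were -0.23 in MCT mice and -0.31 in MCT+NI mice relative to sham mice, each with an SE of 0.540, so that a change of the size seen in Pdk2 was not detectable for it.

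Pdp1, the calcium-stimulated phosphatase of the complex, read 8.47, 8.68 and 8.54 in MCT+NI mice, 8.63, 8.66 and 8.39 in MCT mice, and 8.94, 8.89 and 8.82 in sham mice. The 6 mice given MCT were all below the sham mice, and the MCT+NI and MCT mice overlapped (difference 0.00, 95% interval -0.18 to 0.19). The differences from sham, -0.33 in MCT mice (SE 0.082, adjusted p = 0.0513) and -0.32 in MCT+NI mice (SE 0.082, adjusted p = 0.052), were just outside the threshold. With the atrial markers as a covariate they were -0.49 and -0.50 (adjusted p = 0.0118 and 0.0156), and without mice 644 and 615 they were -0.24 and -0.28 (0.0871 and 0.0625). Mice 644 and 615, which held the most atrial transcript of their groups, had the lowest Pdp1 values of those groups, and the part of atrial tissue in the values was not tested. Pdp2, the second phosphatase, read 5.97, 6.27 and 6.09 in MCT+NI mice, 6.19, 6.06 and 5.84 in MCT mice, and 6.83, 6.05 and 6.47 in sham mice. Sham mouse 624 lay among the mice given MCT, and the differences of -0.42 and -0.34 from sham in MCT and MCT+NI mice did not pass (adjusted p = 0.242 and 0.363).

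**Figure D3:**
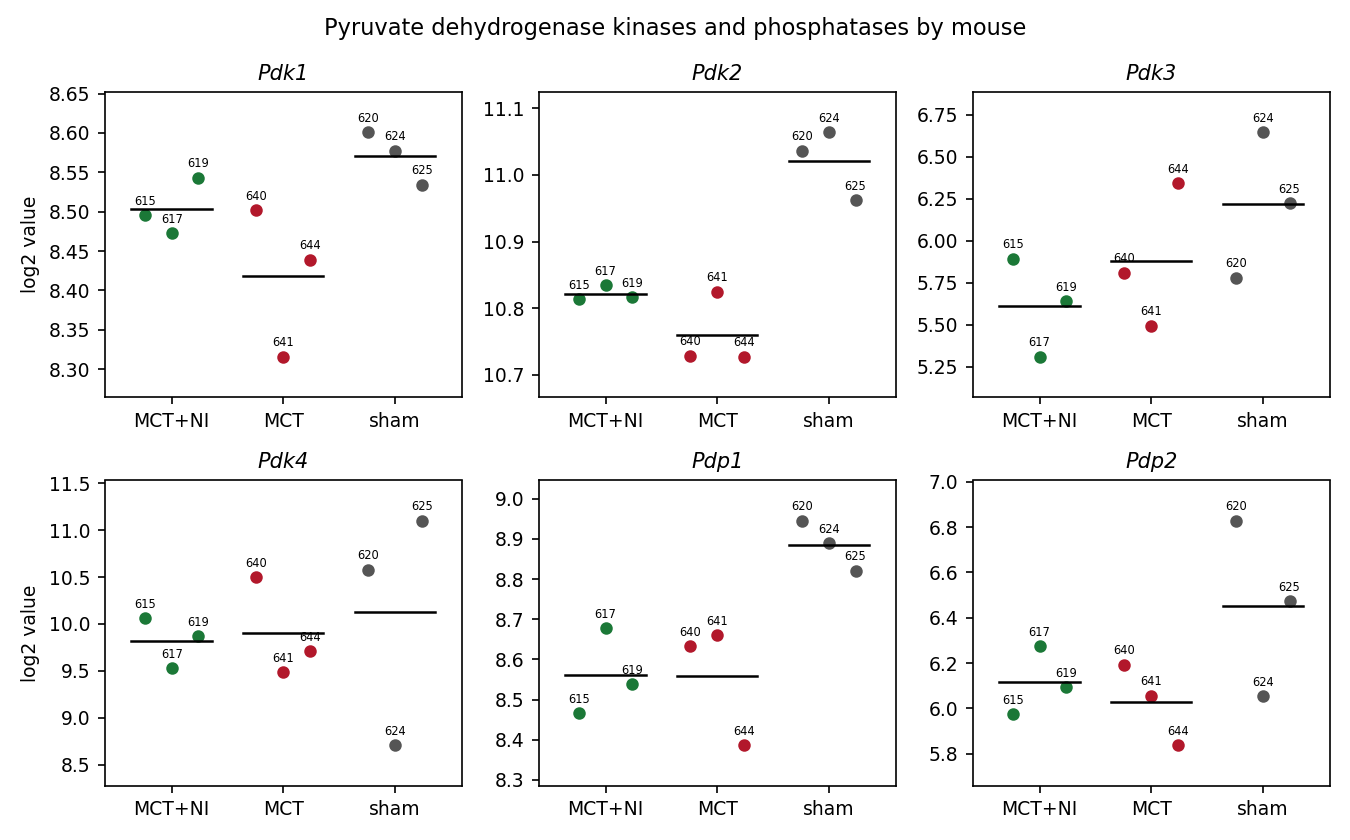
Log2 values of the 4 pyruvate dehydrogenase kinases and both phosphatases in single mice (points with mouse numbers, MCT+NI, MCT and sham from left to right, lines at group means). Each panel has its own vertical scale. Pdk2 and Pdp1 are lower in all 6 mice given MCT than in the 3 sham mice, and Pdk4 spans 8.71 to 11.10 among the sham mice alone.

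The values of the kinases and phosphatases and of the other 24 measured genes stand side by side as follows. The 24 had means in MCT+NI mice above those of MCT mice in 24 of 24, by 0.02 to 0.17, where 47.6% of all genes did. That sign was kept in 17 of 21 alternatives for Idh3g, 18 for Ogdh and 20 for Idh2, Idh3a, Sdhc and Got2. For the rest of the 24 it was kept in all 21. The median of the differences of the 24 from sham was -0.10 in MCT mice and -0.04 in MCT+NI mice. Of the 4 kinases, 2 were above and 2 (Pdk3 and Pdk4) below the mean of MCT mice, and their median difference from sham was -0.24 in MCT mice and -0.25 in MCT+NI mice. For the phosphatases it was -0.37 in MCT mice and -0.33 in MCT+NI mice. The kinase medians rest on genes that varied widely between mice of 1 group. With 1 mouse left out at a time the difference of Pdk4 between MCT and sham mice ran from -0.94 (without sham mouse 624) to 0.26 (without sham mouse 625), that of Pdk3 from -0.57 to -0.12, and the kinase median from -0.27 to -0.12. With the atrial covariate that of Pdk3 was 0.13. Between MCT+NI and sham mice the kinase median ran from -0.31 to -0.14 without single mice, and that of the phosphatases in MCT relative to sham mice from -0.47 to -0.27. The contrast between the lists was described and not tested.

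Pyruvate enters the mitochondrion through a carrier made of Mpc1 and Mpc2. Mpc1 read 11.12, 11.17 and 11.21 in MCT+NI mice, 11.09, 11.12 and 10.97 in MCT mice, and 11.14, 11.12 and 11.10 in sham mice, and differed by 0.11 between MCT+NI and MCT mice (SE 0.042, adjusted p = 1). This brightest probe set is numbered among genes of chromosome 12, whereas Mpc1 lies on chromosome 17. The probe set numbered among chromosome 17 genes read 8.00, 8.40 and 8.03 in MCT+NI mice, 8.09, 8.13 and 7.86 in MCT mice, and 8.40, 8.22 and 8.43 in sham mice. On it Mpc1 differed by -0.32 between MCT and sham mice (adjusted p = 0.168), against -0.06 on the brightest, so the value for the carrier depends on the probe set.

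The malate-aspartate shuttle, which carries reducing equivalents of the cytosol into the mitochondrion, uses cytosolic and mitochondrial malate dehydrogenase and aspartate aminotransferase. Mdh1, the cytosolic dehydrogenase, read 12.30, 12.33 and 12.30 in MCT+NI mice, 12.20, 12.20 and 12.30 in MCT mice, and 12.32, 12.31 and 12.32 in sham mice. MCT mice 640 and 641 were low and MCT mouse 644 lay with the MCT+NI mice. The differences of Mdh1 were -0.08 in MCT relative to sham mice (SE 0.031, adjusted p = 0.193, and 0.0378 without MCT mouse 644) and 0.08 in MCT+NI relative to MCT mice. The cytosolic aminotransferase Got1 differed by -0.02 and the mitochondrial Got2 by -0.06 in MCT relative to sham mice, and neither passed. Got2, on chromosome 8, had its brightest probe set numbered among chromosome 5 genes, and the one numbered among chromosome 8 genes gave -0.06 as well. Another, dimmer probe set of Got2 (mean log2 value 8.98), also numbered among chromosome 5 genes, gave -0.24 (adjusted p = 0.36 in the fit of all single-gene probe sets).

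Genes that feed or drain these pathways were taken from a list of 38, of which 35 were measured. In MCT relative to sham mice 22 of the 35 had a lower mean, where 55.0% of all genes did, with a median difference of -0.07. At the adjusted threshold 3 fell and 1 rose, against 1.61% and 4.65% of all genes. Ldha, the lactate dehydrogenase subunit that favours lactate formation, read 11.49, 11.56 and 11.49 in MCT+NI mice, 11.56, 11.49 and 11.52 in MCT mice, and 11.34, 11.35 and 11.34 in sham mice. It rose by 0.18 in MCT mice (SE 0.030, adjusted p = 0.00918) and by 0.17 in MCT+NI mice (SE 0.030, adjusted p = 0.0117) relative to sham mice, in 6 of 6 mice given MCT, and differed by -0.01 between MCT+NI and MCT mice.

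The related genes that fell were Bckdk, Nnt and Acat1. Bckdk, the kinase that inhibits the branched-chain ketoacid dehydrogenase, read 9.24, 9.31 and 9.22 in MCT+NI mice, 9.16, 9.30 and 9.27 in MCT mice, and 9.43, 9.52 and 9.42 in sham mice. It fell by 0.22 in MCT mice (adjusted p = 0.0321) and by 0.20 in MCT+NI mice (adjusted p = 0.0423) relative to sham mice, with all 6 below the sham mice. Nnt, the transhydrogenase that makes NADPH in the mitochondrion, read 11.32, 11.24 and 11.35 in MCT+NI mice, 11.35, 11.31 and 11.12 in MCT mice, and 11.53, 11.54 and 11.48 in sham mice. It fell by 0.25 in MCT relative to sham mice (adjusted p = 0.0341), and its difference in MCT+NI mice was -0.21 (adjusted p = 0.0714). Acat1, the mitochondrial thiolase of ketone and isoleucine breakdown, read 11.36, 11.37 and 11.35 in MCT+NI mice, 11.31, 11.30 and 11.31 in MCT mice, and 11.48, 11.38 and 11.47 in sham mice. It fell by 0.14 in MCT relative to sham mice (adjusted p = 0.0337), and MCT+NI mice lay between the other groups without overlap. Between MCT+NI and MCT mice 0 of the 35 passed in limma (0.0% of all genes), and 4 were higher at an unadjusted p under 0.05, against 1.59% of all genes. These 4 were the oxoglutarate carrier Slc25a11, the ketone body enzyme Oxct1, the hydroxyglutarate dehydrogenase D2hgdh and the monocarboxylate transporter Slc16a1. Without mice 644 and 615 only Ldha was called in MCT relative to sham mice (adjusted p = 0.0397), and with the atrial markers as a covariate Nnt (0.0228) and Ldhb, the other lactate dehydrogenase subunit, fell and Ldha was not called (0.084). In MCT+NI relative to sham mice the calls were Ldha, which rose, and Bckdk, which fell, where 4.52% of all genes rose and 1.75% fell. They became Ldha, Nnt and Slc16a1 without the 2 mice and Nnt alone with the covariate.

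Summarised by mouse, the median of the 30 differences from the sham mean was -0.08, -0.01 and -0.05 in MCT+NI mice, -0.13, -0.10 and -0.14 in MCT mice, and 0.04, -0.02 and -0.02 in sham mice. All 3 MCT mice were below the 3 sham mice and below the 3 MCT+NI mice. Of the 30 genes, 29, 17 and 25 lay below the sham mean in MCT+NI mice 615, 617 and 619, against 29, 28 and 29 in MCT mice 640, 641 and 644. MCT+NI mouse 617 was thus nearest to the sham mice and MCT+NI mouse 615, which also held the most atrial transcript of its group, nearest to the MCT mice. Sham mouse 620 was the highest of the sham mice and held the least atrial transcript among them. Without it 12 of the 30 genes were lower in MCT mice at an unadjusted p under 0.05 and only Pdk2 was called.

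**Figure D4:**
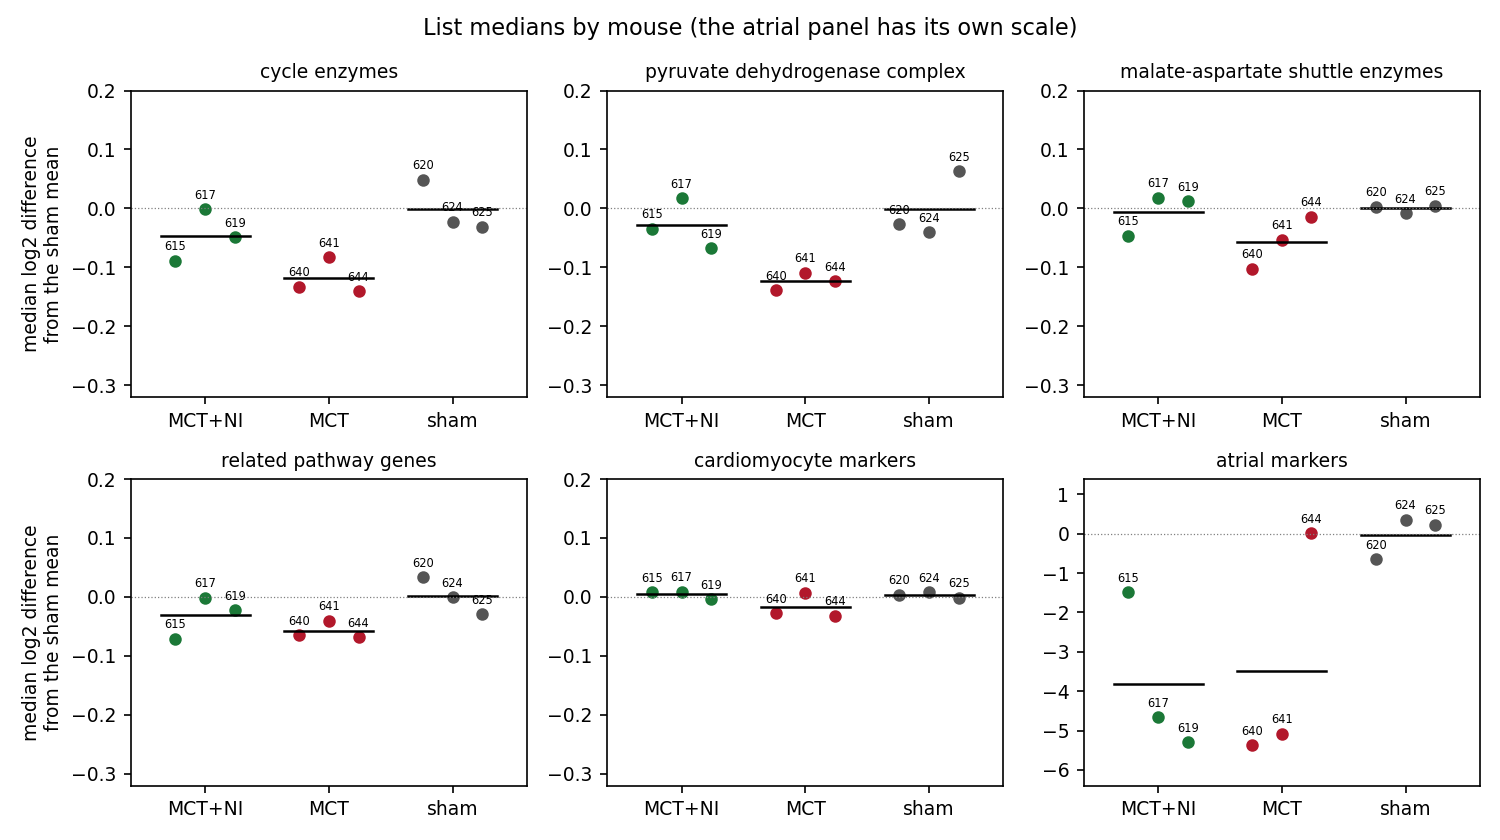
Median log2 difference from the sham mean over the genes of 6 lists in single mice (points with mouse numbers, MCT+NI, MCT and sham from left to right, lines at group means). The atrial panel has its own vertical scale. For the cycle enzymes the MCT mice lie at -0.14 to -0.08 and the sham mice at -0.03 to 0.05, while the cardiomyocyte markers of all 9 mice lie between -0.03 and 0.01.

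Markers of cell types were read beside these values. The cardiomyocyte markers had a median difference of -0.03 in MCT relative to sham mice, and 1 of 14 fell (Ryr2, the calcium release channel, by 0.17, adjusted p = 0.0234, and 0.189 with the atrial markers as a covariate). Their summed linear values were 75610 to 76220 in MCT+NI mice, 73780 to 75740 in MCT mice and 75240 to 75990 in sham mice, whereas those of the 17 cycle genes were 40490 to 42470 in MCT+NI mice, 39270 to 40650 in MCT mice and 42220 to 44400 in sham mice. Where 4.65% of all genes rose in MCT relative to sham mice, 7 of 10 smooth muscle and pericyte markers did, with sums of 6482 to 7447 in MCT+NI mice, 5826 to 6905 in MCT mice and 4158 to 4521 in sham mice. Of 10 fibroblast markers 4 rose, with sums of 8101 to 9258 in MCT+NI mice, 8444 to 10290 in MCT mice and 7953 to 8809 in sham mice. These 4 were the collagens Col1a1, Col1a2 and Col3a1 and the matrix protein Postn, and 3 of the 10 had lower means without passing, Gsn (-0.26), Pdgfra (-0.19) and Tcf21 (-0.09). Of 10 endothelial markers 3 rose (Pecam1, Cdh5 and Egfl7), with sums of 6903 to 7744 in MCT+NI mice, 7151 to 7620 in MCT mice and 5937 to 6892 in sham mice. Another 5 had lower means, among them Tek (-0.47, adjusted p = 0.0935) and Vwf (-0.67, adjusted p = 0.191), and Tek fell in MCT+NI relative to sham mice (by 0.62, adjusted p = 0.0348). Of 10 macrophage markers 3 rose and Cd163 fell, with sums of 2110 to 2844 in MCT+NI mice, 2317 to 2968 in MCT mice and 1717 to 2095 in sham mice. In MCT+NI relative to sham mice 1 macrophage marker rose (Lyz2), and Cd163 and Csf1r fell. Of 6 measured adipocyte markers 0 passed in limma, with none at an unadjusted p under 0.05. With all mice kept, the 6 atrial markers were lower only at an unadjusted p under 0.05. Without mice 644 and 615 all 6 atrial markers were called lower, in MCT and in MCT+NI relative to sham mice. With the atrial markers as a covariate the counts that rose in MCT mice became 3 smooth muscle and pericyte, 3 fibroblast, 2 endothelial and 0 macrophage markers, and without mice 644 and 615 they became 7, 4, 3 and 0, with Cd163 lower in both. The part of these cell types in the values of the pyruvate and cycle genes was not tested.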

How the data were processed

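Right ventricular RNA of 9 mice was hybridised to 1 array each. The authors processed the scans by robust multi-array analysis (RMA, named without a version in the submitters' processing notes), and the deposited values are log2 intensities per probe set. According to the methods, probes were regrouped by Entrez gene, yet the 35556 deposited rows carry the manufacturer's numbers, of which the platform annotation pairs 12457 with no gene, 1881 with several and 21218 with 1. The scans were not reprocessed, so background correction and summary are those of the authors. Methods and labels name different kits for RNA isolation and labelling.

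Group means of the 9 mice were compared in limma 3.58.1 (R 4.3.3) with the trend option of the empirical Bayes step, and the two-sided p-values were adjusted by Benjamini-Hochberg over 18820 genes, each taken from its brightest single-gene probe set (1386 genes had several). A call is an adjusted p under 0.05. The procedure was run on simulated data with independent errors and changes of known size. Recovery was required only for the largest changes simulated, which exceed every difference of the 30 genes. Smaller changes were simulated too, without a required recovery, and their recovery is not reported here. Passing the check therefore does not show how well differences of the size seen in the 30 genes are called. With 3 arrays per group their number limits the precision, and the labels do not state scan batches. The genes, the lists and the tests were chosen with earlier results of these data known. Values per mouse are printed for genes called in any comparison, for genes at an unadjusted p under 0.05 in both MCT against sham and MCT+NI against MCT mice, and for the kinases, phosphatases and carrier. The closing section gives 19 alternatives and 2 added after the data were seen.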

Additional observations from a re-analysis of the deposited data

How the results depend on the processing

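No called result changed its direction under the alternatives run. For MCT against sham mice the 5 members called became 1 with no intensity trend, 1 with only the 2 groups compared, 2 after quantile normalization, 10 after centring on array medians, 8 with dim genes left out and 1 without mice 644 and 615 (added after the data were seen), and 1 to 5 when single mice were left out. The 19 members lower at an unadjusted p under 0.05 became 12 to 19 without single mice, and the 4 related genes called became 0 with no trend, 1 with 2 groups, 2 after quantile normalization, 2 with the atrial covariate, 1 without mice 644 and 615 and 1 to 4 without single mice. For MCT+NI against MCT mice the 7 members higher at an unadjusted p under 0.05 became 3 with no trend, 4 after quantile normalization and 3 to 8 without single mice. For MCT+NI against sham mice the 1 member called became 0 with no trend, 2 with 2 groups, 2 after centring, 3 with dim genes left out, 2 with array weights, 2 with the atrial covariate, 2 with robust empirical Bayes, 0 without mice 644 and 615 and 0 to 2 without single mice. The 5 lower at an unadjusted p under 0.05 became 3 with no trend, 8 with 2 groups, 9 after centring, 9 with the atrial covariate and 3 to 8 without single mice. The 2 related genes called became 0 with no trend, 4 with dim genes left out, 1 with the atrial covariate and 1 to 2 without single mice. The related genes called in MCT mice were 1 without sham mouse 620 or 625 or MCT+NI mouse 619, and those in MCT+NI mice were 1 without any single sham mouse, MCT mouse 641 or MCT+NI mouse 619. Pdp1 was called in MCT+NI against sham mice without MCT mouse 644 (adjusted p = 0.0204) or MCT+NI mouse 617 (0.0379). The members lower in MCT+NI against sham mice at an unadjusted p under 0.05 were 8 without sham mouse 624 and 3 without MCT+NI mouse 619. The median difference was -0.19 in MCT and -0.10 in MCT+NI against sham mice after centring, and -0.083 in MCT+NI against sham mice with the atrial covariate. Centring moved the median of all genes in MCT against sham mice to -0.08, against -0.02 as deposited, and the calls over all genes to 759 higher and 711 lower, against 876 and 303, and for MCT+NI against sham mice to 758 and 649, against 850 and 329. Dim genes left out tests 9256 genes and so adjusts over fewer. In MCT against sham mice 421 of these 9256 were called lower and 1254 were lower at an unadjusted p under 0.05. Over all 18820 genes these counts were 303 and 1720. Shares of genes that fell are thus higher among the brighter genes than the shares of all genes given above. The cause of the other shifts was not tested. No paired analysis was possible because the mouse numbers are not shared between groups.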
